A study of Homo sapiens with 15 samples.

Results

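Protein-coding genes that span over 500 kb of the human genome were examined in H69 cells as a group of 236 genes. A gene belonged to the group when GENCODE v29 (genome build GRCh38) listed it as protein-coding with a span over 500 kb, and when its mean raw count over the 3 DMSO libraries was 30 or more. The count table held 62754 gene identifiers, of which 19855 were protein-coding. Of these, 317 spanned over 500 kb, and 81 of them stayed below the count. H69 (NCI-H69) is an established line of small cell lung cancer, labelled as the classic type, a tumour whose cells carry neuroendocrine and neuron-like gene expression. The cells received the solvent DMSO as control, CS2, or FB23-2, and each group had 3 libraries of RNA sequencing. The study asks about FTO, an enzyme that removes the methyl group of N6-methyladenosine from RNA, and names both compounds as its inhibitors. Brequinar, another name of CS2, blocks DHODH, an enzyme of pyrimidine synthesis. All 3 groups are the same line with no engineered genotype in the labels. Dose and treatment time, not given in the sources used here, cannot be compared, and 6 libraries of the line H82 were not analysed here.

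Most of the sequence of such a gene is intron. RNA polymerase II has to travel the whole span before a full-length transcript is released, which takes hours for the longest genes, and the spliced mRNA is only a small part of what was copied. Long genes are known to be rich in proteins of neurons, above all adhesion molecules of the synapse, axon guidance receptors, ion channels and scaffold proteins. Small cell lung cancer lines express many of them.

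The spans ranged from 501 kb to 2474 kb, with a median of 719 kb. RBFOX1, a splicing regulator, was the longest, and SPOCK3, a secreted proteoglycan, was the shortest. Exons covered a median of 1.30% of the span, and the longest intron of a member had a median length of 205 kb. The spliced principal transcript (the main coding transcript by the annotation's tag) had a median of 5.86 kb, against 3.11 kb over all protein-coding genes tested, and its GC content had a median of 43.7% against 48.6%. The principal transcript itself spanned over 500 kb in 185 of the 236 members. In the other 51 it spanned up to 500 kb, and other annotated transcripts extended the span of the gene. An example is GSE1, a chromatin-associated coiled-coil protein, whose principal transcript spanned 63.0 kb. Members lay on 22 chromosomes.

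Promoter sequences were matched in RefSeq (GRCh38.p14) for 196 of the 236 members, as windows of 250 bases before to 50 bases after the start that RefSeq gives, which can differ from that of GENCODE. Each window held a median of 21.5 CG dinucleotides, against 14.0 over all 35116 windows of the same length, and 101 windows (51.5%) held 20 or more, against 41.2% of all windows. At least 1 CG was found in 99.5% of the members' windows and in 96.0% of all windows. A CG reads the same on both strands. The letters TATAAA, searched on both strands, were present in 7.65% of the members' windows and 11.5% of all windows. The 35116 windows outnumber the 19855 protein-coding genes of the table and were not matched to the members in gene type or level. The part of span in these differences was not tested. The median CG count was 21.5 in the 172 matched members that were lower with CS2 and also 21.5 in the other 24. The windows of 3 members on chromosome 13 are shown, because HS6ST3 and GPC6 had the lowest and the third-lowest fold change with CS2 of the members named by rule, while PCDH9 was among the few that were higher. CG dinucleotides are in capitals, and each sequence runs 5′ to 3′ on the strand of the gene. The HS6ST3 window is chr13:96089857-96090156 on the plus strand with 19 CG and lies wholly upstream of the GENCODE start of the gene, that of GPC6 is chr13:93226557-93226856 on the plus strand with 6, and that of PCDH9 is chr13:67230287-67230586 on the minus strand with 20.
HS6ST3: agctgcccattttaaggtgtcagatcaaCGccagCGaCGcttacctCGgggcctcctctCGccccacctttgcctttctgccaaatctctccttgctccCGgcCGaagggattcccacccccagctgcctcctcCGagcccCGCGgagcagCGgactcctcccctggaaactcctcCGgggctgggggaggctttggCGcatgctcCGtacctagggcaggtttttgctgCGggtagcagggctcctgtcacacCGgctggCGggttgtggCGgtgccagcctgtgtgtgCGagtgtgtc
GPC6: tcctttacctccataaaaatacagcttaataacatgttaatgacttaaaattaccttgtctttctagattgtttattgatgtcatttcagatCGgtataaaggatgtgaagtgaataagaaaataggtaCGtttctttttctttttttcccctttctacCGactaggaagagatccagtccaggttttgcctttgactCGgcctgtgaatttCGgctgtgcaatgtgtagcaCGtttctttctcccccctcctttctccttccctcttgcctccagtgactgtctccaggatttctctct
PCDH9: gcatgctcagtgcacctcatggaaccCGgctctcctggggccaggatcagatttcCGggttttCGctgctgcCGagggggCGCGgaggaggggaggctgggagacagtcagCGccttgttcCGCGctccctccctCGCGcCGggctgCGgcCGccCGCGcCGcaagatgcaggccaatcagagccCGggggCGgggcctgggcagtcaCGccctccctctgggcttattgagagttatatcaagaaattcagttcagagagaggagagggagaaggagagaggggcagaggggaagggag

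Library totals ranged from 29916267 to 45022633 counts. Libraries of the same group differed from each other by more than counting noise in every pair. FB23-2 replicate 2 stood apart from the other 2 of its group, with 10.97% of counts from mitochondrial genes against 6.83% and 6.91%. Its chi-square per degree of freedom against them was 46.95 and 48.94, where that of all other pairs within a group was 4.16 to 14.02. The mitochondrial share was 5.18% to 5.69% with DMSO and 7.3% to 9.05% with CS2, and its part in the results was not tested beyond leaving these genes out. Of 8 neuroendocrine markers, 7 were detected in every group, and CALCA was at 0. Their summed level was 2777 to 3034 CPM (counts scaled to a common library size) with DMSO, 2221 to 2322 with CS2 and 1956 to 2123 with FB23-2. Summed fibroblast markers (6 genes, almost all from COL1A2, with DCN and COL3A1 at 0) were 52.7 to 54.4, 33.1 to 39.6 and 10.5 to 15.3 CPM. Blood cell markers (6 genes, CD3E at 0) summed to 4.95 CPM or less and endothelial markers (4 genes, KDR at 0) to 2.46 CPM or less in every library.

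With CS2 the long genes were lower almost throughout. Members took 1.254%, 1.345% and 1.377% of the counts in the 3 DMSO libraries, 0.622%, 0.629% and 0.66% in the CS2 libraries, and 1.05%, 1.092% and 1.017% in the FB23-2 libraries. The 3 groups did not overlap in this share. Against DMSO, 209 members were lower with CS2, 5 were higher and 22 did not pass, by edgeR's quasi-likelihood test with p-values adjusted by Benjamini-Hochberg and a threshold of 0.05. Over the 19781 genes tested, 25.3% were called lower and 24.3% higher. The fall was not particular to genes over 500 kb. Among protein-coding genes of 200 to 500 kb 64.9% were lower and 5.09% higher, at a median log2 fold change of -0.57. Among those of 100 to 200 kb 42.5% were lower and 15.6% higher, at a median of -0.19. The median log2 fold change of the members was -1.40, with a range of -6.27 to 1.07, and 220 values were below 0. The median over all genes tested was -0.00. In 213 members every CS2 library lay below every DMSO library, which was so for 30.8% of all genes. The group was proposed with this fall known, and its members were chosen by their DMSO level, so these numbers describe the group and test nothing. The cells were sequenced in bulk, so fewer cells expressing a gene and less RNA per cell cannot be told apart.

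Within the group the fall was of like size across spans. The median log2 fold change with CS2 was -1.32 in 129 members of 500 to 750 kb, -1.59 in 60 members of 750 to 1000 kb and -1.50 in 47 members over 1000 kb. Across the 236 members, Pearson's r between the fold change and the log span was -0.06 and Spearman's rho was -0.09. Over the 14037 protein-coding genes tested, r was -0.28 and rho -0.30. Genes are not independent replicates and share the same libraries, so these coefficients are descriptions. For the span of the principal transcript r was -0.18 among members, for the length of the longest intron -0.17, for the GC content of the mRNA 0.00 and for the DMSO level -0.02. The median was -1.47 in the 185 members whose principal transcript spanned over 500 kb, -1.03 in 46 members where it spanned 100 to 500 kb and -0.94 in 5 members where it was shorter. In 4 equal classes of the DMSO level, from low to high, the medians were -1.26, -1.40, -1.47 and -1.37.

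**Figure D1:**
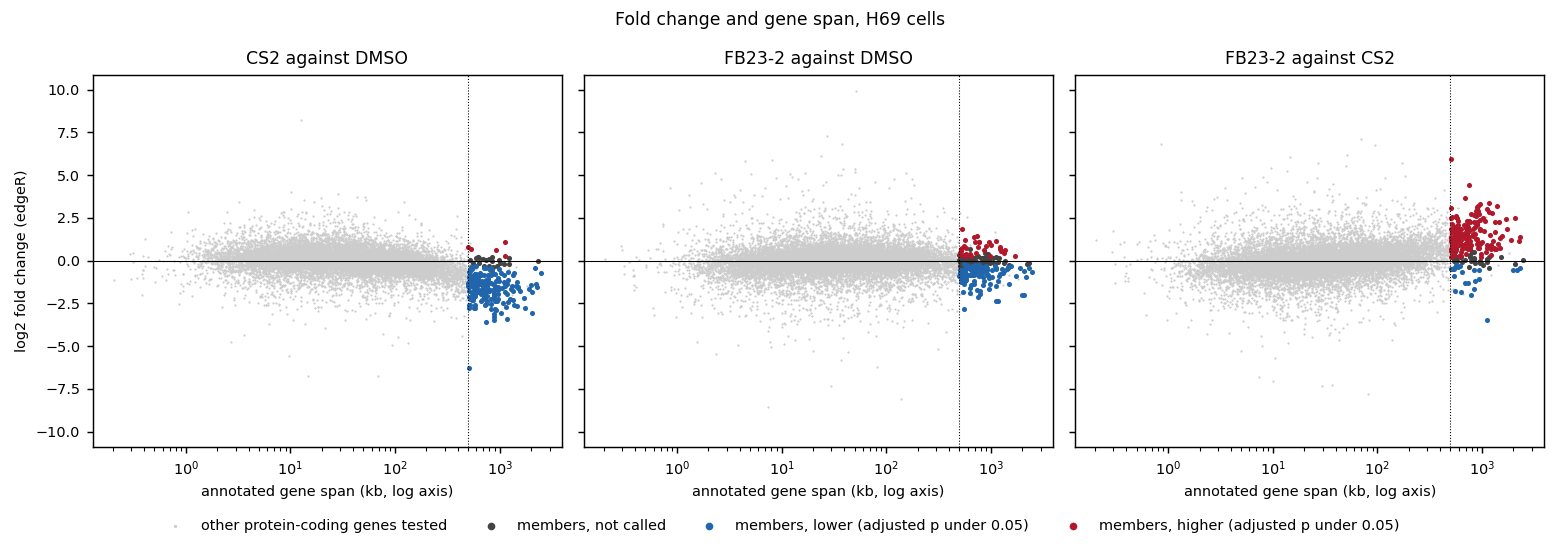
Log2 fold change from edgeR (vertical axis) against the annotated gene span in kb (log axis) for the protein-coding genes tested, with the 236 members coloured by their call and the dotted line at 500 kb. With CS2 against DMSO 209 members lie below 0 as called genes, with FB23-2 against DMSO the members spread to both sides (112 lower, 34 higher), and with FB23-2 against CS2 177 are called higher.

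With FB23-2 the members moved in both directions. Against DMSO, 112 members were lower, 34 were higher and the rest did not pass, where 26.7% of all genes tested were called lower and 25.4% higher. The members' median log2 fold change was -0.24, with a range of -2.82 to 1.87, and the median over all genes was -0.00. Every FB23-2 library lay below every DMSO library in 111 members and above in 43, against 30.3% and 29.5% of all genes, and the libraries overlapped in 82. A choice of members by the mean count over all 9 libraries, which does not favour genes that are high with DMSO alone, gave 232 genes with 110 lower and 35 higher. Without FB23-2 replicate 2 the members numbered 122 lower and 27 higher, with a median of -0.33.

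The direct comparison of FB23-2 with CS2 sets no DMSO level, on which the members were chosen, against another, although the DMSO libraries entered the shared estimate of spread and the fall in these CS2 libraries was known when the group was proposed. In it 177 members were higher with FB23-2 and 22 were lower, by edgeR at an adjusted p under 0.05, where 29.7% of all genes were called higher and 30% lower. The median log2 fold change was 1.12 over members and 0.01 over all genes tested. Among protein-coding genes of 200 to 500 kb 61.3% were higher and 12.2% lower, at a median of 0.52. All FB23-2 libraries lay above all CS2 libraries in 180 members (31.3% of all genes) and below in 21 (31.6% of all genes). The summed level of the members was 6378 ± 195 CPM (SD, n = 3) with CS2 and 10543 ± 839 CPM with FB23-2, and 13274 ± 590 CPM with DMSO. Without FB23-2 replicate 2, 172 members were higher and 24 lower, and with only the CS2 and FB23-2 libraries in the fit 174 were higher and 22 lower.

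**Figure D2:**
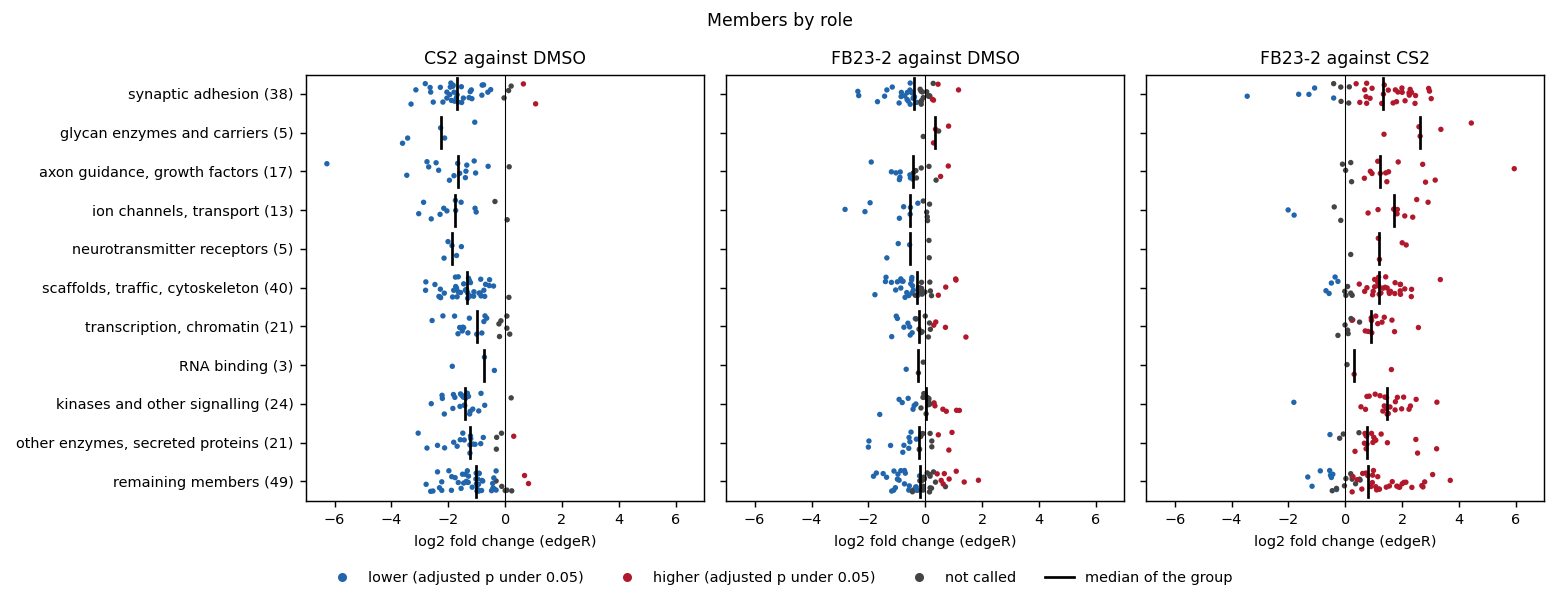
Log2 fold change from edgeR (horizontal axis) of each member in 11 role groups (number of members in brackets) for the 3 comparisons, with colours for the call and a black bar at the median of the group. With CS2 against DMSO every group has its median below 0, from -2.27 for the glycan group to -0.73 for RNA binding, and with FB23-2 against CS2 every group has its median above 0.

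Of the role groups as listed, the lowest median with CS2 belonged to 5 members that build or carry sugar chains on the cell surface. The proteoglycans SPOCK1 and SPOCK3 stand in the signalling list instead, so this rank depends on how the lists were drawn. All 5 were lower with CS2, with a median log2 fold change of -2.27, none was lower with FB23-2 against DMSO, and 3 were higher. For this and the other role lists, the shares of all genes tested were 25.3% lower and 24.3% higher with CS2. With FB23-2 against DMSO these shares were 26.7% and 25.4%. HS6ST3 (chr13:96090839-96839562, plus strand) encodes an enzyme that adds sulfate to the 6-O position of heparan sulfate, and it has 2 exons separated by an intron of 740.9 kb. It stood at 10.2, 9.51 and 11.4 CPM with DMSO, at 0.472, 1.17 and 0.931 CPM with CS2 and at 15.9, 18.0 and 21.2 CPM with FB23-2. The 3 groups did not overlap, with CS2 lowest and FB23-2 highest. The log2 fold change was -3.61 ± 0.21 (SE) with CS2 against DMSO, 0.82 ± 0.16 with FB23-2 against DMSO and 4.43 ± 0.21 with FB23-2 against CS2, where edgeR's quasi-likelihood test gave adjusted p = 2.20e-12.

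GPC6 (chr13:93226842-94407401, plus strand), a glypican that carries heparan sulfate chains, measured 37.8, 38.3 and 38.0 CPM with DMSO and 3.04, 2.82 and 4.72 CPM with CS2. With FB23-2 it measured 28.1, 48.2 and 32.0 CPM. The FB23-2 libraries lay on both sides of the DMSO libraries and far above those of CS2, and the fold change with CS2 was -3.43 ± 0.22 on the log2 scale. ST6GALNAC3, a sialyltransferase, had 11.1, 11.1 and 12.7 CPM with DMSO, 1.89, 2.41 and 2.96 with CS2 and 12.9, 17.7 and 14.2 with FB23-2. GALNT13, which starts O-linked sugar chains, had 56.1, 59.8 and 59.4 CPM with DMSO, 23.5, 27.9 and 32.0 with CS2 and 68.0, 79.9 and 66.7 with FB23-2. Both were lowest with CS2 and highest with FB23-2 without overlap. The rise of ST6GALNAC3 with FB23-2 against DMSO (0.36 ± 0.14 on the log2 scale) did not pass without FB23-2 replicate 2 (0.22), DMSO replicate 1 (0.33) or DMSO replicate 2 (0.33). That of GALNT13 (0.29 ± 0.10) did not pass without FB23-2 replicate 2 (0.21), DMSO replicate 1 (0.26) or DMSO replicate 3 (0.30), and with a correction for GC content neither passed (0.12 for both).

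Synaptic adhesion proteins were the largest group with a shared function of this kind, with 38 members. With CS2, 33 were lower and 2 higher, at a median of -1.71, and with FB23-2 against DMSO 22 were lower and 4 higher, at a median of -0.41. NEGR1 (chr1:71395940-72282734, minus strand), an IgLON adhesion protein of neurons, had 20.2, 23.9 and 22.1 CPM with DMSO, 2.33, 2.08 and 2.26 with CS2 and 14.4, 21.1 and 15.5 with FB23-2. NLGN1 (chr3:173396284-174286644, plus strand), the postsynaptic partner of the neurexins, had 42.0, 52.8 and 54.2 CPM with DMSO, 6.25, 4.96 and 5.69 with CS2 and 38.1, 52.2 and 41.0 with FB23-2. In both genes the CS2 libraries formed a tight low group, and the FB23-2 libraries overlapped with those of DMSO, although NEGR1 was called lower there (-0.38, edgeR adjusted p = 0.0213). That call was lost without DMSO replicate 2 (-0.32), DMSO replicate 3 (-0.38), FB23-2 replicate 1 (-0.26) or FB23-2 replicate 3 (-0.30). NLGN1, at -0.18, did not pass (edgeR adjusted p = 0.218), but was lower without FB23-2 replicate 2 (-0.32) and with the GC correction (-0.47). The log2 fold changes with CS2 were -3.31 ± 0.16 and -3.14 ± 0.14.

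DSCAM, an adhesion protein that guides the spacing of neurites, had 58.0, 57.2 and 63.4 CPM with DMSO, 9.08, 7.51 and 8.92 with CS2 and 39.3, 43.4 and 41.3 with FB23-2. It was lowest with CS2 and in between with FB23-2, with no overlap. Among the neurexins, presynaptic adhesion receptors, NRXN3 had 56.0, 58.4 and 62.8 CPM with DMSO, 13.0, 11.8 and 13.9 with CS2 and 64.1, 81.0 and 65.9 with FB23-2. With FB23-2 NRXN3 thus lay above all DMSO and all CS2 libraries. The rise of NRXN3 over DMSO (0.25 ± 0.10 on the log2 scale) did not pass without FB23-2 replicate 2 (0.14), DMSO replicate 1 (0.22) or DMSO replicate 2 (0.24), or with a correction for GC content (0.11). CADM2, a SynCAM adhesion protein, moved in opposite directions with the compounds, from 8.18, 8.52 and 8.48 CPM with DMSO to 2.12, 2.48 and 2.43 with CS2 and to 14.0, 23.7 and 19.1 with FB23-2. NTM, another IgLON protein, was lower with both, at 151, 159 and 159 CPM with DMSO, 55.2, 52.3 and 55.6 with CS2 and 50.3, 51.4 and 45.0 with FB23-2.

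**Figure D3:**
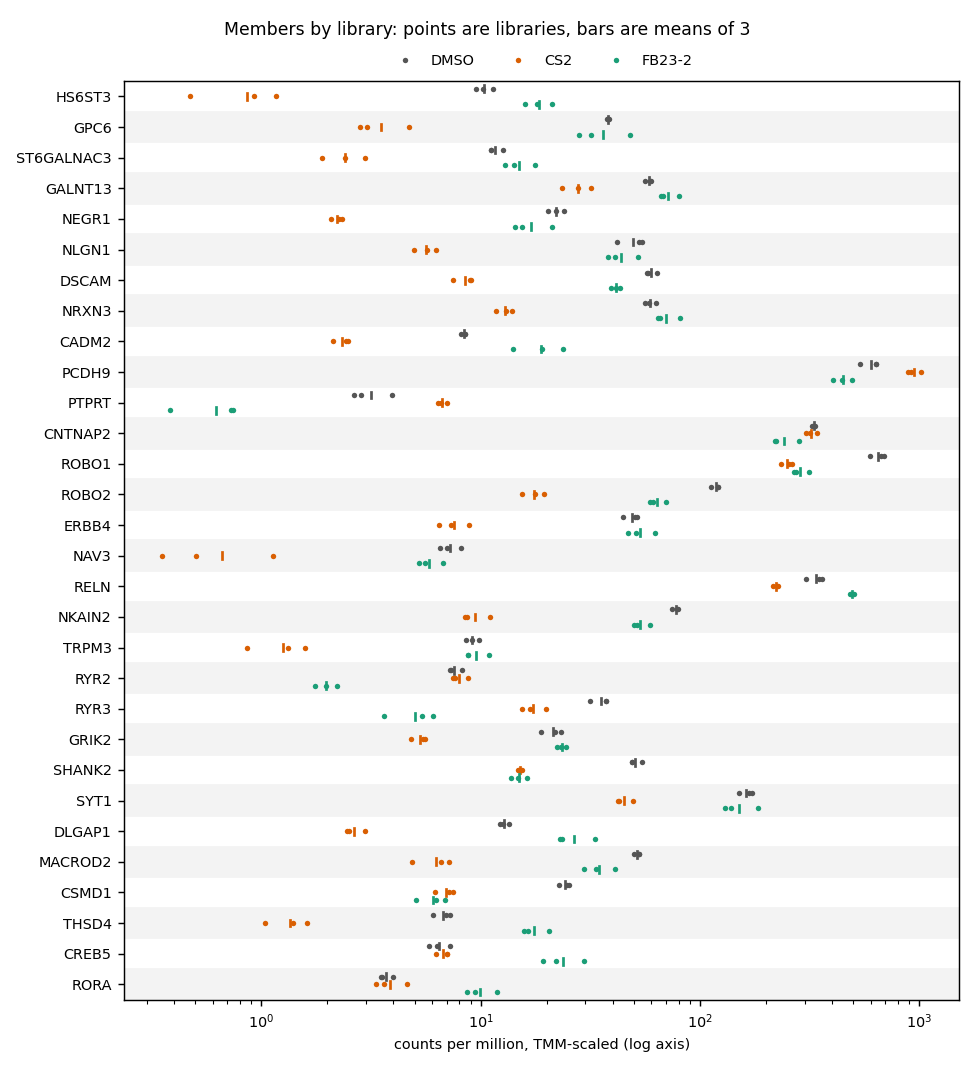
TMM-scaled CPM (log axis) of 30 members, where each point is 1 library and each bar the mean of the 3 libraries of a group. CS2 libraries are the lowest in most rows, such as HS6ST3 and NLGN1, while PCDH9 and PTPRT are highest with CS2, and THSD4 and CREB5 are highest with FB23-2.

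Of 17 members in the list of axon guidance proteins and receptors of growth factors, 16 were lower with CS2 and none was higher, at a median of -1.67. Roles were assigned from general knowledge, and KAZN, the 1 that did not pass, fits this list only loosely. With FB23-2 against DMSO 9 were lower and 2 were higher. ROBO1, a receptor for the repellent slit proteins, had the highest level of all members per length of mRNA, at 116 CPM per kb with DMSO. It had 593, 667 and 690 CPM with DMSO, 234, 255 and 262 with CS2 and 267, 314 and 273 with FB23-2. Its level was lower with both compounds to nearly the same value, and the difference between them, 0.19 ± 0.08 on the log2 scale, did not pass (edgeR adjusted p = 0.0550), though it passed in 9 alternative fits, with values of 0.19 to 0.24. ROBO2, its relative, had 112, 121 and 121 CPM with DMSO, 17.7, 15.4 and 19.5 with CS2 and 59.3, 70.2 and 61.4 with FB23-2. Here FB23-2 lay in between, and its difference from CS2 was 1.86 ± 0.10 (edgeR adjusted p = 8.83e-12).

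ERBB4, a receptor for neuregulins, had 44.5, 50.3 and 51.6 CPM with DMSO, 6.43, 7.35 and 8.88 with CS2 and 51.2, 62.1 and 46.9 with FB23-2. NAV3, a microtubule-binding protein named as a neuron navigator, had 8.16, 6.52 and 7.04 CPM, 0.354, 0.503 and 1.13 CPM and 5.22, 6.71 and 5.60 CPM in the same order. In both, the FB23-2 libraries overlapped with those of DMSO and all CS2 libraries lay below them. RELN, the secreted guidance protein reelin, had 305, 349 and 361 CPM with DMSO, 225, 215 and 228 with CS2 and 485, 502 and 486 with FB23-2. It fell with CS2 (-0.60 ± 0.07) and rose with FB23-2 (0.54 ± 0.07, edgeR adjusted p = 5.09e-06). SEMA5A, a semaphorin, lies outside the naming rule because its DMSO level was under 5 CPM, and it was picked after its values were seen, for the lowest fold change of all members. It had 215 reads over the DMSO libraries, 2 over the CS2 libraries and 167 over the FB23-2 libraries. The CS2 level was 1.14% of that with DMSO, with an exact 95% interval of 0.137% to 4.15% that covers counting error only.

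The list of ion channels and transport proteins held 13 members, among them ATRNL1, which fits it only loosely and did not pass with CS2. The potassium channel proteins KCNAB1 and KCNJ6 are in no list. With CS2 11 of the 13 were lower and none higher (median -1.75), while KCNAB1 was higher (0.82) and KCNJ6 lower (-1.30). With FB23-2 against DMSO 8 were lower and none higher (median -0.52). NKAIN2 (chr6:123804141-124825657, plus strand), which binds the sodium pump, had 78.4, 74.8 and 79.0 CPM with DMSO, 8.67, 8.52 and 11 with CS2 and 51.7, 59.0 and 50 with FB23-2. TRPM3, a heat-sensing cation channel, had 8.58, 9.16 and 9.79 CPM, 1.33, 1.58 and 0.865 CPM and 8.77, 8.80 and 10.9 CPM in the same order. NKAIN2 was lower with both compounds and lowest with CS2, while TRPM3 with FB23-2 overlapped with DMSO. The ryanodine receptors, which release calcium from the endoplasmic reticulum, went another way. RYR3 had 31.5, 37.2 and 37.2 CPM with DMSO, 19.8, 15.5 and 16.8 with CS2 and 6.05, 3.64 and 5.39 with FB23-2, the largest fall of any member with FB23-2 (-2.82 ± 0.15 on the log2 scale, edgeR adjusted p = 1.59e-11). RYR2 had 7.34, 8.21 and 7.24 CPM with DMSO, 7.49, 7.68 and 8.75 with CS2 and 2.21, 1.97 and 1.75 with FB23-2. With CS2 its libraries overlapped with those of DMSO, and its log2 fold change with FB23-2 against CS2 was -2.01 ± 0.16 (edgeR adjusted p = 2.07e-09).

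All 5 neurotransmitter receptors in the group bind glutamate or belong to that family, and all 5 were lower with CS2, at a median of -1.87. GRIK2, a kainate receptor subunit, had 18.9, 21.8 and 23.2 CPM with DMSO, 5.48, 4.80 and 5.59 with CS2 and 22.3, 23.3 and 24.6 with FB23-2. GRID1, a delta-type glutamate receptor, had 32.2, 31.6 and 36.2 CPM, 10.5, 8.22 and 11.8 CPM and 23, 22.9 and 22.3 CPM in the same order. With FB23-2, GRIK2 overlapped with DMSO and GRID1 lay below it, and both lay above CS2. GRM5, a metabotropic receptor, fell from a mean of 3.83 CPM with DMSO to 1.05 CPM with CS2, but other genes overlap 50.4% of its exon bases.

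Scaffold, trafficking and cytoskeleton proteins were the largest list, with 40 members. With CS2 39 were lower and none was higher (median -1.36), and with FB23-2 against DMSO 22 were lower and 4 higher (median -0.30). SYT1, the calcium sensor of synaptic vesicle release, had 150, 172 and 167 CPM with DMSO, 42.9, 42.5 and 49.7 with CS2 and 138, 184 and 130 with FB23-2. SHANK2, a scaffold of the postsynaptic density, had 49.0, 48.9 and 54.5 CPM, 15.4, 14.8 and 15 CPM and 16.2, 13.8 and 14.8 CPM in the same order. The level of SYT1 with FB23-2 overlapped with DMSO, while SHANK2 was lower with both compounds, to levels that overlapped. DLGAP1, which joins SHANK proteins to guanylate kinase scaffolds, had 12.2, 12.6 and 13.4 CPM with DMSO, 2.45, 2.52 and 2.96 with CS2 and 23.6, 33.3 and 23.1 with FB23-2. It was 3.34 ± 0.16 higher with FB23-2 than with CS2 on the log2 scale (edgeR adjusted p = 1.93e-12). UTRN, the dystrophin relative utrophin, had 343, 384 and 403 CPM with DMSO, 188, 202 and 206 with CS2 and 153, 195 and 149 with FB23-2. UTRN was thus lower with both compounds. SGCD, a sarcoglycan of the dystrophin complex, fell from 17.6, 19.1 and 20.8 CPM with DMSO to 2.83, 2.18 and 3.19 with CS2, with 11.5, 12.5 and 11 with FB23-2.

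Of 21 members in the list of transcription and chromatin proteins, which leaves out CREB5 and GSE1, 15 were lower with CS2 and none was higher (median -1.0), and with FB23-2 against DMSO 9 were lower and 4 higher (median -0.22). HDAC9, a histone deacetylase, had 116, 126 and 129 CPM with DMSO, 37.2, 42.0 and 43.6 with CS2 and 80.3, 103 and 74.3 with FB23-2. AUTS2, a neurodevelopmental regulator linked to Polycomb complexes, had 302, 294 and 315 CPM, 201, 191 and 189 CPM and 326, 372 and 316 CPM in the same order. HDAC9 was lower with both compounds, and AUTS2 was lower with CS2. RORA, a nuclear receptor, rose with FB23-2, from 3.55, 3.53 and 4.0 CPM with DMSO to 8.65, 11.9 and 9.39, with 3.63, 3.32 and 4.62 with CS2. It was 1.37 ± 0.17 higher with FB23-2 than with CS2 on the log2 scale (edgeR adjusted p = 7.34e-07). CREB5 did not pass with CS2 and rose with FB23-2, and GSE1 was lower with both compounds. The RNA-binding list held CELF2, KHDRBS2 and RBFOX1, all lower with CS2, and left out RALYL. RBFOX1, the longest gene, had 2.18, 2.26 and 2.33 CPM with DMSO, 1.39, 1.11 and 1.60 with CS2 and 1.55, 1.58 and 1.11 with FB23-2. Its fall did not pass without CS2 replicate 2 (log2 fold change -0.60), and that of CELF2 with CS2 did not pass without DMSO replicate 3 (-0.31).

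Kinases, phosphatases and other signalling proteins numbered 24, a list that also holds the proteoglycans SPOCK1 and SPOCK3, the tRNA-modifying enzyme CDKAL1 and the adhesion receptor ADGRV1. With CS2 23 were lower and none was higher (median -1.43), and with FB23-2 against DMSO 7 were lower and 6 higher (median 0.01), shares near those of all genes (26.7% and 25.4%). PDE4D, a phosphodiesterase that breaks down cyclic AMP, had 43.4, 50.4 and 48.9 CPM with DMSO, 12.6, 13.5 and 15.7 with CS2 and 33.4, 44.8 and 35.5 with FB23-2. PLCL1, a catalytically inactive relative of phospholipase C, had 6.92, 7.57 and 7.88 CPM with DMSO, 3.27, 3.39 and 3.49 with CS2 and 14.5, 19.6 and 13.7 with FB23-2. PLCL1 was lowest with CS2 and highest with FB23-2, with no overlap. STK3, a kinase of the Hippo pathway, likewise stood at 2.74, 2.58 and 2.11 CPM, 1.12, 1.44 and 1.56 CPM and 4.29, 7.77 and 4.93 CPM.

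The list of other enzymes and secreted proteins held 21 members, with 17 lower and 1 higher with CS2 (median -1.24) and 10 lower and 3 higher with FB23-2 against DMSO (median -0.21). It is a mixed list that also holds ERC1, ERC2, the CSMD membrane proteins and the axoneme protein SPAG16, the 1 member higher with CS2. MACROD2 (chr20:13995369-16053197, plus strand), a hydrolase that removes ADP-ribose from proteins, had 49.9, 52.9 and 52.7 CPM with DMSO, 4.89, 6.61 and 7.19 with CS2 and 29.5, 40.9 and 33.7 with FB23-2. CSMD1, a complement-regulating membrane protein, had 22.7, 24.8 and 25.2 CPM, 7.46, 6.17 and 7.15 CPM and 6.89, 5.08 and 6.24 CPM in the same order. MACROD2 was lower with both compounds and lowest with CS2, while the levels of CSMD1 with the 2 compounds overlapped. RAD51B, a DNA repair protein, had 4.50, 3.75 and 4.71 CPM with DMSO, 0.825, 0.671 and 0.998 with CS2 and 7.30, 7.34 and 8.54 with FB23-2. WWOX, an oxidoreductase at a common fragile site, had 69.6, 67.6 and 71.3 CPM with DMSO, 29.3, 28.8 and 31.2 with CS2 and 44.7, 55.2 and 47.9 with FB23-2. EYS, an extracellular protein of photoreceptors, had 31.8, 34.2 and 33.0 CPM with DMSO, 10.6, 11 and 14.8 with CS2 and 7.87, 8.80 and 8.37 with FB23-2. RAD51B was highest with FB23-2, WWOX lay in between there, and EYS was lowest there.

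The remaining 49 members belong to no list, and 42 of them were lower and 2 higher with CS2 (median -1.01). With FB23-2 against DMSO 21 were lower and 8 higher. THSD4, a secreted protein that binds microfibrils, had 6.92, 6.07 and 7.26 CPM with DMSO, 1.62, 1.04 and 1.40 with CS2 and 16.4, 20.4 and 15.7 with FB23-2. FSTL5, a follistatin-like secreted protein, had 26.0, 27.2 and 26.7 CPM, 7.87, 8.49 and 9.18 CPM and 51.8, 63.2 and 54.7 CPM in the same order, with 11.6% of its exon bases overlapped by another gene. Both were lowest with CS2 and highest with FB23-2, and they differed between the compounds by 3.69 ± 0.18 and 2.73 ± 0.11 on the log2 scale (edgeR adjusted p = 2.23e-12 and 2.12e-13). ANKS1B, a postsynaptic ankyrin repeat protein, followed the same order, at 4.34, 4.90 and 4.35 CPM with DMSO, 1.00, 1.17 and 0.699 with CS2 and 5.63, 8.77 and 5.54 with FB23-2. Its rise over DMSO did not pass without FB23-2 replicate 2 (0.31), DMSO replicate 1 (0.53) or DMSO replicate 3 (0.53). RALYL, an RNA-binding protein of neurons, had 95.2, 95.2 and 94.1 CPM with DMSO, 65.1, 67.4 and 82.9 with CS2 and 27.7, 30.3 and 28 with FB23-2, and was lower with FB23-2 than with CS2 by edgeR (-1.32 ± 0.09 on the log2 scale). TAFA1, a secreted brain protein, was lower with both, at 8.21, 9.22 and 10.4 CPM, 3.15, 3.56 and 4.39 CPM and 2.71, 2.66 and 2.54 CPM.

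The 5 members that were higher with CS2 differed widely in level. PCDH9 (chr13:66302834-67230445, minus strand), a protocadherin, was the second-most abundant member by CPM. It had 538, 637 and 635 CPM with DMSO, 916, 1023 and 886 with CS2 and 442, 494 and 405 with FB23-2. Its 3 groups did not overlap, with CS2 highest, and the difference between the compounds was -1.08 ± 0.09 on the log2 scale (edgeR adjusted p = 3.23e-09). PTPRT (chr20:42072752-43189970, minus strand), a receptor tyrosine phosphatase with adhesion domains, had 2.66, 2.86 and 3.93 CPM with DMSO, 6.37, 7.04 and 6.59 with CS2 and 0.745, 0.384 and 0.729 with FB23-2. It showed the same order as PCDH9 with a larger difference between the compounds, -3.45 ± 0.24, the largest fall of any member in that comparison (edgeR adjusted p = 4.44e-10).

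EGLN3, a prolyl hydroxylase that acts on hypoxia-inducible factors, had 18.0, 11.4 and 10.2 CPM with DMSO and 23.1, 22.7 and 17.8 with CS2. The highest DMSO library overlapped with the CS2 libraries, and the principal transcript of this gene spans only 26.9 kb. KCNAB1, a potassium channel subunit, had 1.47, 1.65 and 1.04 CPM with DMSO and 2.54, 2.58 and 2.20 with CS2, and without DMSO replicate 3 its log2 fold change of 0.64 did not pass. SPAG16, a protein of the axoneme of cilia and sperm tails, had 13.8, 14.2 and 13.6 CPM with DMSO and 14.7, 18.5 and 18.0 with CS2. Its log2 fold change of 0.30 ± 0.11 did not pass without any 1 of the 3 DMSO libraries (0.29 to 0.31), without CS2 replicate 2 (0.24) or without CS2 replicate 3 (0.27). Without DMSO replicate 3, only 3 members were higher with CS2.

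The 22 members that passed in neither direction with CS2 included ADAMTSL1, ATRNL1, CAMTA1, CDH4, CEP112, CNTNAP2, CREB5, ELMO1, ESRRG, FGF12, FOXP1, IQCJ-SCHIP1, KAZN, KIAA1217, LRRTM4, RASGEF1B, RORA, RUNX1, RYR2, ULK4 and ZFHX3. Other genes overlap 46.2% of the exon bases of IQCJ-SCHIP1 and 24.9% of those of KAZN. For FOXP1, 19.3% of the 50-base windows of its mRNA also occur in other genes. The principal transcript is shorter than 500 kb in some, such as FGF12 (266.5 kb), KIAA1217 (338.7 kb), CREB5 (413.4 kb) and ADAMTSL1 (437.1 kb). CNTNAP2, a neurexin-like protein that organises axonal potassium channels, is the second-longest member at 2305.0 kb. It had 325, 332 and 336 CPM with DMSO, 304, 342 and 317 with CS2 and 219, 284 and 222 with FB23-2. The CS2 libraries lay on both sides of the DMSO libraries, and the approximate 95% interval of the log2 fold change, -0.22 to 0.13, leaves out a fall of the size of the members' median. CREB5, a transcription factor that binds cyclic AMP response elements, had 6.34, 7.28 and 5.84 CPM with DMSO, 7.02, 6.24 and 7.02 with CS2 and 19.3, 29.7 and 22.0 with FB23-2, the largest rise of any member with FB23-2 (1.87 ± 0.15, edgeR adjusted p = 3.61e-09). CEP112, a centrosomal protein, rose with FB23-2 as well, from 17.8, 19.2 and 20.3 CPM with DMSO to 33.1, 41.7 and 27.7, with 17.0, 16.7 and 19.1 with CS2. FGF12, an intracellular protein that binds sodium channels, and CDH4, a cadherin, were both lower with FB23-2 than with DMSO or CS2. FGF12 had 9.34, 6.93 and 7.62 CPM with DMSO, 8.25, 10.2 and 9.28 with CS2 and 2.95, 2.21 and 2.74 with FB23-2. CDH4 had 22.1, 19.2 and 19.1 CPM, 28.6, 19.1 and 18.0 CPM and 9.66, 7.36 and 10.1 CPM in the same order.

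In 20 protein families, 26 members could be set beside 34 tested paralogs that span up to 200 kb. With CS2, 25 of the 26 members were lower and none was higher (median log2 fold change -1.75), while 6 of the 34 short paralogs were lower and 13 were higher (median 0.12). These shares of the short paralogs were near those of all protein-coding genes of 10 to 50 kb, of which 16.8% were lower and 35.0% higher. The mean of the long genes was lower than that of the short genes in 20 of 20 families, and all long genes lay below all short ones in 17. Members were chosen by their DMSO count, which favours a lower value with CS2, while a paralog only had to be tested. These family counts are therefore descriptions. CACNA1S and ROBO3, each the only short gene of its family here, were at just 0.401 and 0.689 CPM with DMSO. NLGN1 had -3.14 ± 0.14, against 0.41 ± 0.16 for NLGN2 (15 kb) and 1.71 ± 0.22 for NLGN3 (26.4 kb). HS6ST3 had -3.61 ± 0.21 and HS6ST1 (81.9 kb) 0.05 ± 0.09, although 20.3% of the 50-base windows of HS6ST1 mRNA also occur in other genes. ERBB4 had -2.69 ± 0.13, against 0.96 ± 0.18 for ERBB2 (42.5 kb) and 1.02 ± 0.29 for ERBB3 (26.7 kb). The call of ERBB3 was lost without CS2 replicate 1 (0.69), and that of NLGN2 without CS2 replicate 1 (0.30), DMSO replicate 2 (0.32) or DMSO replicate 3 (0.45), or with the GC correction (0.19).

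The 3 families without a full separation were the DLG scaffolds, the CELF proteins and the FOXP factors. DLG2 spans 2172.9 kb, and its log2 fold change with CS2 was -0.41 ± 0.09, between DLG3 (60.6 kb) at -0.63 ± 0.08 and DLG4 (32.7 kb) at 0.30 ± 0.11. The call of DLG4 was lost with the GC correction (0.20) and without DMSO replicate 2 or CS2 replicate 1 (0.25 in both). CELF2 had -0.38 ± 0.11 and CELF1 (99.6 kb) -0.44 ± 0.07. FOXP2, a transcription factor linked to speech, had -1.49 ± 0.14, while FOXP1 had 0.16 ± 0.11 and FOXP4 (56.0 kb) 0.13 ± 0.08. With FB23-2 against DMSO 11 of 26 members were lower and 5 higher (median -0.16), and 11 of 34 paralogs were lower and 11 higher (median 0.07), where 26.7% of all genes were lower and 25.4% higher. The mean of the long genes was lower in 12 of 20 families. With FB23-2 against CS2, 21 members were higher and 1 was lower (median 1.56), where 29.7% of all genes were higher and 30% lower. In the same comparison 9 of 34 paralogs were higher and 15 lower (median -0.14). The 1 member that was lower was DLG2, at -0.57 ± 0.09.

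**Figure D4:**
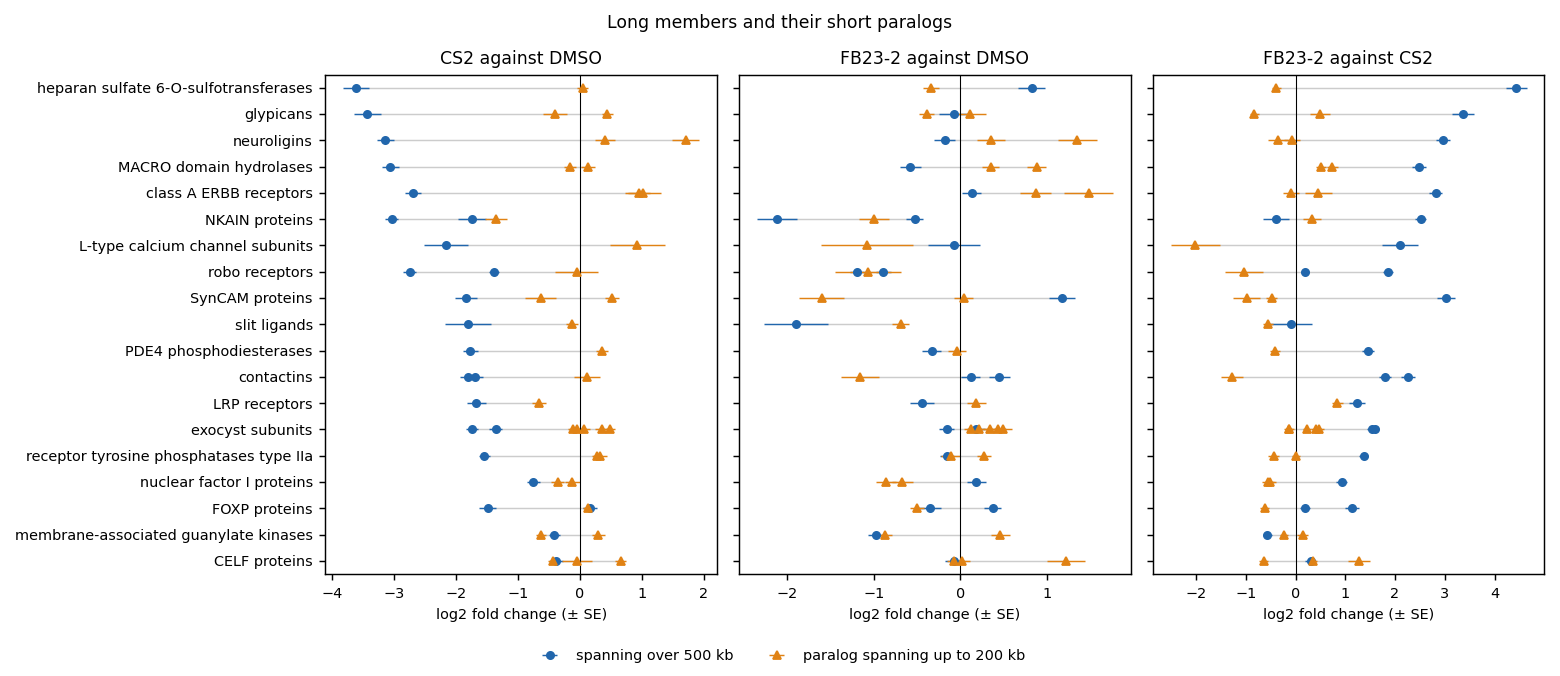
Log2 fold change with its standard error (horizontal axis) of members (circles) and of paralogs spanning up to 200 kb (triangles) in 19 of the 20 families, sorted by the CS2 value of the long genes. With CS2 the circles lie left of the triangles in 16 of the 19, and with FB23-2 against CS2 the mean of the circles lies to the right in 17.

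Genes just outside and just inside the thresholds are given here as a description. By count, RBMS3, LPP, CA10 and PCDH15 had means of 24.7 to 27.7 reads with DMSO and log2 fold changes with CS2 of -1.52 to -0.36, and EPHA6, TMEM117 and CFAP299 had 34.7 to 40.3 reads and -2.34 to -1.16. By span, DST, ITPR2, CACNA2D1 and DIAPH3 lay at 496.6 to 498.4 kb with -1.55 to -1.0, and SPOCK3, KCNAB1, PPFIA2 and PPP2R2B at 501.4 to 503.6 kb with -1.47 to 0.82. Reads of some members cannot be assigned with certainty. Other genes overlapped 10% or more of the exon bases in 15 members, and in 6 members 10% or more of the 50-base windows also occur in other genes. Without the 15 overlapped members, 196 of 221 were lower with CS2 and 5 higher.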

How the data were processed

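Total RNA of H69 cells (TRIzol, an mRNA library kit for Illumina, per the labels) was sequenced, and the authors deposited 1 table of raw read counts per Ensembl gene for 9 libraries, 3 each with DMSO, CS2 and FB23-2. Per the submitters' processing notes, hg38 was used. Aligner, counter, annotation and strand setting, not given in the sources used here, are treated as unknown. Overlapping and antisense genes therefore cannot be separated with certainty. Of 62754 gene identifiers, 58261 matched GENCODE v29, which gave gene types, spans and transcripts. The other 4493 kept their counts in the library sizes and tests but could not be members. Nothing in the labels says that replicates came from separate cultures (the series calls them biological), so p-values measure the spread between these libraries.

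Counts were filtered with filterByExpr (minimum count 10, minimum total 15), scaled by TMM and fitted with edgeR 4.0.16 in R 4.3.3 (robust quasi-likelihood, group means over all 9 libraries). That left 19781 genes, with all 236 members among them, and a biological coefficient of variation of 0.101. P-values were adjusted by Benjamini-Hochberg across the whole table, with calls under 0.05. CPM values are TMM-scaled, and ± after a fold change is a standard error. Depth was 29916267 to 45022633 counts per library. Counting intervals are exact at 95% and cover counting error only. The fit was tested on simulated counts. The alternatives were DESeq2 1.42.0, other scalings and filters, a correction for exon GC content, the replicate number as a block, other member rules, and each library left out.

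Members, families and role lists were chosen with earlier results of these data known. Named genes were taken by rule: the 6 marker genes, the most abundant members, those higher with CS2, the lowest with CS2 and the nearest to 0 at 5 CPM or more with DMSO, the largest changes with FB23-2, up to 3 per role, and family members. Only part of these is printed, and some genes are not reported here. Proteins and a genome sequence were not used here. Figures were drawn with matplotlib 3.10.9 in Python 3.11.15.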

Additional observations from a re-analysis of the deposited data

How the results depend on the processing

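The medians kept their direction under every alternative. With CS2 against DMSO the median stayed between -1.50 and -1.36, and with FB23-2 against DMSO it ran from -0.19 (without FB23-2 replicate 1 or 3) to -0.33 (without FB23-2 replicate 2, or with the GC correction). The number of members higher with CS2 was 3 without DMSO replicate 3 (range 3 to 6 when each library was left out), and 2 of 47 members over 1000 kb were higher. In those 47 the median was -0.42, outside that range, with FB23-2 against DMSO and 0.94 with FB23-2 against CS2. When each library was left out, 201 to 210 members were lower with CS2, 95 to 122 were lower and 26 to 38 higher with FB23-2 against DMSO, and 170 to 179 were higher and 17 to 24 lower with FB23-2 against CS2.

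Replicate numbers were not accepted as pairs, since same-numbered libraries correlated at -0.051 to 0.128 between DMSO and either compound. Between CS2 and FB23-2 they correlated at 0.099 to 0.399, against -0.326 to 0.03 for different numbers. With the replicate number as a block, 209 members were lower and 6 higher with CS2, 114 and 35 with FB23-2, and 180 were higher and 23 lower with FB23-2 against CS2. DESeq2 gave 208 and 5, 107 and 34, and 172 and 22.

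Of 2850 values of named genes under the alternatives, 2789 kept direction and call, 41 lost the call, 12 gained it and 8 changed sign, all 8 uncalled with CS2 against DMSO. When each library was left out, CREB5 ranged from -0.01 (without DMSO replicate 3) to 0.15 and CDH4 from -0.12 (without CS2 replicate 1) to 0.25. With the GC correction, alone and with the block, CDH4 was at -0.06 and -0.07, HS6ST1 at -0.14 in both and FOXP4 at -0.10 in both. The causes were not tested. Depth limits the 27 members under 1 CPM with CS2.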

Other observations

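Short genes that lie inside the long ones were looked at after the values of the members were seen. There were 12 tested protein-coding genes of up to 100 kb within 10 members. With CS2 against DMSO 7 of them were higher and 1 was lower by edgeR at an adjusted p under 0.05, with a median log2 fold change of 0.28. Their hosts ranged from -3.06 (MACROD2) to 0.68 (EGLN3), and most of these hosts fell less than the median of all members, -1.40. SPTSSA, 1 of the 7, lies inside EGLN3, which was itself higher. Of all genes tested 24.3% were higher and 25.3% lower, and of protein-coding genes of 10 to 50 kb 35.0% and 16.8%. FLRT3, an adhesion protein that lies inside MACROD2 on the other strand, had 34.3 ± 0.476 CPM (SD, n = 3) with DMSO and 77.4 ± 5.17 CPM with CS2, a log2 fold change of 1.17 ± 0.09, while MACROD2 was at -3.06. LRRN1, a leucine-rich repeat protein inside SUMF1, was at 0.99 ± 0.11 against -0.82 for its host. BEND5, inside AGBL4 on the same strand, was at 0.52 ± 0.15 against -1.57. TRIM32, a ubiquitin ligase inside ASTN2, was at 0.63 ± 0.09 against -0.51. SCHIP1, which shares exons with IQCJ-SCHIP1, was the 1 gene called lower, at -0.67 ± 0.19. With FB23-2 against DMSO 6 of the 12 were lower and 2 higher, at a median of -0.34. Of all genes tested 26.7% were lower and 25.4% higher there, and of protein-coding genes of 10 to 50 kb 26.9% and 30.2%. With FB23-2 against CS2 9 of the 12 were lower and 1 was higher. Here 30% of all genes were lower and 29.7% higher, and of protein-coding genes of 10 to 50 kb 37.9% and 24.2%. Reads of a nested gene and its host cannot be told apart where exons overlap and the strand setting is unknown.

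Among 35 tested genes over 500 kb that are not annotated as protein-coding, 15 were lower and 1 was higher with CS2 (median -0.68, all genes 25.3% and 24.3%), and 15 were lower and 3 higher with FB23-2 against DMSO (median -0.66, all genes 26.7% and 25.4%). With FB23-2 against CS2 14 were higher and 10 lower (all genes 29.7% and 30%). All 6 members on the X chromosome were lower with CS2, at a median of -1.81, where 88.6% of all members were lower, at a median of -1.40. So few genes do not set this chromosome apart.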
